A study of Mus musculus with 34 samples.

Results

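The comparison described here sets the epiblast stem cells of the mouse strain NZO/HiLtJ against those of C57BL/6J. It takes the 2 NZO/HiLtJ lines (AC653 and AC671) and the 5 C57BL/6J lines (1, 2, 4, 44 and 5-1) of the EpiSC count table, 7 of its 17 libraries, and was chosen by strain name and not by any measured value. The whole series holds 34 RNA-seq libraries of 7 inbred strains. Embryonic stem cells of each strain had been converted to epiblast stem cells (EpiSC), and definitive endoderm (DE) was then derived from them over 40 h and sorted for the surface receptor CXCR4. The NZO/HiLtJ and C57BL/6J EpiSC lines carry no introduced allele. All were grown on irradiated mouse embryonic fibroblasts in N2B27 medium with FGF at 12.5 ng/mL, Activin A at 20 ng/mL and a tankyrase inhibitor at 175 nM. The other EpiSC lines, under the same conditions, were 2 of NOD/ShiLtJ, 2 of WSB/EiJ, 3 of PWK/PhJ, 2 of CAST/EiJ and 1 of DBA/2J. Each library is 1 cell line, so a replicate is a line, and no label says whether lines of a strain came from separate animals. NZO/HiLtJ lines bear AC names and C57BL/6J lines plain numbers, and a difference in origin behind these names cannot be told apart from strain.

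EpiSC are a primed pluripotent state that resembles the epiblast just before gastrulation. FGF and Activin signalling keeps them undifferentiated, Pou5f1 and Sox2 sustain pluripotency, and Fgf5, Otx2 and Zic2 mark the primed state. NZO/HiLtJ is the New Zealand Obese strain, a polygenic model of obesity and type-2-like diabetes whose genome differs from that of C57BL/6J, the source of the mouse reference sequence. Reads of all strains were aligned to that reference (mm10, per the submitters' processing notes), so a true difference in RNA and a difference in how reads of a strain align cannot be told apart in these counts.

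The NZO/HiLtJ lines held 30.9 and 26.7 M counts for AC653 and AC671, against 26.3 to 31.1 M in the C57BL/6J lines (median 27.5 M). Both strains carried the primed pluripotent profile that their label states. Pou5f1, the central pluripotency factor, had 674 and 669 CPM (counts scaled to library size) in the NZO/HiLtJ lines, against 483, 671, 522, 486 and 650 CPM in C57BL/6J lines 1, 2, 4, 44 and 5-1. Fgf5 had 266 and 302 CPM in NZO/HiLtJ, against 171 to 293 CPM in C57BL/6J. The 9 detected genes of a naive pluripotency list summed to only 43.5 and 43.9 CPM in NZO/HiLtJ, against 46.6 to 105 CPM in C57BL/6J.

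The spread between lines differed sharply by strain. The biological coefficient of variation, the typical relative spread of a gene between lines, was 0.0779 in NZO/HiLtJ (n = 2) and 0.333 in C57BL/6J (n = 5). C57BL/6J lines varied in germ layer genes. T, the primitive streak factor Brachyury, had 98.9 and 104 CPM in NZO/HiLtJ, against 616, 146, 362, 292 and 110 CPM in C57BL/6J lines 1, 2, 4, 44 and 5-1. Cer1, an antagonist of Nodal made by anterior endoderm, had 44.9 and 61.7 CPM in NZO/HiLtJ, against 181, 15.4, 153, 95.7 and 3.77 CPM in those C57BL/6J lines. The NZO/HiLtJ values of Cer1 lay inside the C57BL/6J range and those of T just under it, and neither gene passed the test (adjusted p = 0.723 for Cer1 and 0.148 for T). Fibroblast markers moved with the lines as well. The 15 listed genes summed to 1712 and 1842 CPM in NZO/HiLtJ, inside a C57BL/6J range of 181 to 4357 CPM, and none of them passed. In bulk RNA, fewer feeder cells and less RNA per feeder cell cannot be told apart. The 4 Y-linked genes summed to 222 and 236 CPM in NZO/HiLtJ and to 41.4 to 220 CPM in C57BL/6J. With their level as a covariate 1007 genes were called between the strains, against 1110 with that of the fibroblast list and 986 with neither. The Y-linked covariate ended the calls of 4 of the 24 genes named by rule below, Peg10, Atp10d, Rerg and Pim1. Among list members it ended those of H2-D1, Smad3, Kdr, Lpl, Gapdh, Ccne1, Snrpn and Zrsr1.

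**Figure D1:**
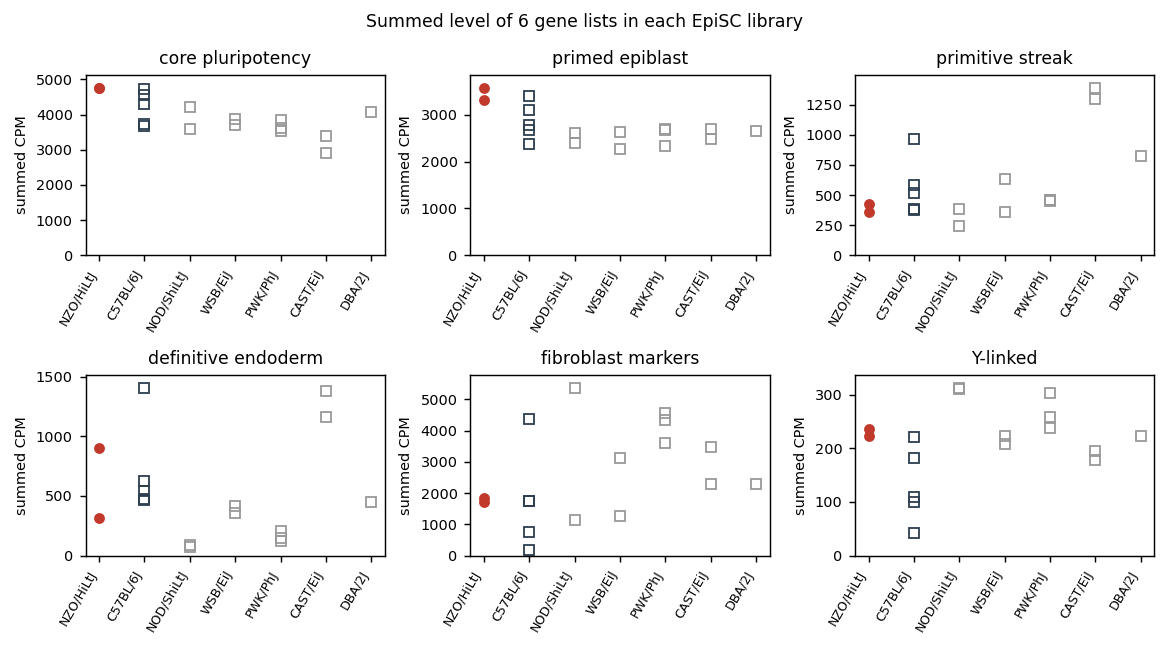
Summed expression (CPM, linear axis from 0) of 6 gene lists in each of the 17 EpiSC libraries, by strain. Filled circles are the 2 NZO/HiLtJ lines and open squares the lines of the other strains. For core pluripotency genes NZO/HiLtJ, at 4754 and 4756 CPM, lies only just above the highest other library, C57BL/6J line 5-1 at 4722 CPM. For fibroblast markers it lies inside the C57BL/6J range of 181 to 4357 CPM.

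Among 17868 genes tested, 986 differed between NZO/HiLtJ and C57BL/6J EpiSC at an adjusted p under 0.05 in edgeR's quasi-likelihood test, which is 5.52% of genes. Of these, 482 were higher in NZO/HiLtJ (2.7% of genes) and 504 lower (2.82%), and 284 and 289 of them differed by at least 2-fold. The main test took its spread from all 17 EpiSC libraries. Fitted on the 7 libraries of both strains alone, 201 of 16023 genes passed (1.25%), 77 higher and 124 lower, and 197 of these were called in the same direction with 17 libraries. Without line AC653 the count was 242, without line AC671 it was 263, and without C57BL/6J line 2 it was 1718. The libraries of the strains did not overlap for 4466 of the 17868 genes tested, 2296 of them higher in NZO/HiLtJ. Of the 986 called genes, 982 did not overlap. Lack of overlap was not itself a test. The median log2 fold over all genes was -0.03.

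The largest rises, by a rule of size, level and no overlap between libraries, included signalling, transport and imprinted genes. Arhgap45, which encodes a GTPase-activating protein (chromosome 10, 80016653 to 80031472), had 57.1 and 65.6 CPM in NZO/HiLtJ, against 5.80, 8.59, 8.39, 4.27 and 4.55 CPM in C57BL/6J lines 1, 2, 4, 44 and 5-1. Its log2 fold was 3.28 ± 0.23 (SE), with an adjusted p of 9.55e-07. Both NZO/HiLtJ lines stood far above the highest C57BL/6J line. Tmco1, a calcium channel of the endoplasmic reticulum (chromosome 1, 167308378 to 167333978), had 160 and 144 CPM in NZO/HiLtJ, against 54.2, 55.6, 52.1, 53.2 and 57.2 CPM in C57BL/6J. Both strains were tight for Tmco1, and it rose by a log2 fold of 1.48 ± 0.070 (adjusted p = 1.48e-08). Exoc3l, named for its likeness to an exocyst subunit (chromosome 8, 105289924 to 105296101), had 69.96 and 73.2 CPM in NZO/HiLtJ and 17.6 to 25.8 CPM in C57BL/6J, a log2 fold of 1.69 ± 0.19 (adjusted p = 0.000132). Zfp420, a zinc finger gene with many related family members, had 31.3 and 26.7 CPM in NZO/HiLtJ and 8.61 to 10.7 CPM in C57BL/6J (log2 fold 1.56 ± 0.20, adjusted p = 0.000382).

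Peg10, an imprinted gene that the placenta requires (chromosome 6, 4747306 to 4760517), had 398 and 335 CPM in NZO/HiLtJ, against 146, 53.1, 187, 103 and 60.4 CPM in C57BL/6J lines 1, 2, 4, 44 and 5-1. The log2 fold was 1.74 ± 0.39 (adjusted p = 0.0249). Sgce, the imprinted gene that begins beside it on the opposite strand, had 6.83 and 6.51 CPM in NZO/HiLtJ and 5.04 to 10.3 CPM in C57BL/6J and did not pass (adjusted p = 0.578). Slc38a4, an amino acid transporter imprinted in mouse, had 116 and 130 CPM in NZO/HiLtJ and 18.3 to 51.0 CPM in C57BL/6J (log2 fold 1.74 ± 0.27). Pde4b, a phosphodiesterase that degrades cyclic AMP, had 28.6 and 29.5 CPM in NZO/HiLtJ and 4.89 to 13.6 CPM in C57BL/6J (log2 fold 1.74 ± 0.29). Grm6, the glutamate receptor of retinal ON bipolar cells, had 40.8 and 42.6 CPM in NZO/HiLtJ and 5.24 to 17.4 CPM in C57BL/6J (log2 fold 1.77 ± 0.30). Further rises by the rule were the lipid flippase gene Atp10d (log2 fold 1.43), the neuronal adhesion gene Cntn2 (1.37) and the Ras-like gene Rerg (1.36). The calls of Grm6, Pde4b, Slc38a4, Peg10, Atp10d, Cntn2 and Rerg were lost in the 7-library fit, at adjusted p from 0.0604 to 0.157. Peg10, Atp10d, Cntn2 and Rerg also lost their calls without either NZO/HiLtJ line, with adjusted p up to 0.229, 0.156, 0.217 and 0.24 in that order. Grm6 lost its call without line AC671, Peg10 without C57BL/6J line 44 (0.0529) and Rerg without C57BL/6J line 1 (0.051).

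**Figure D2:**
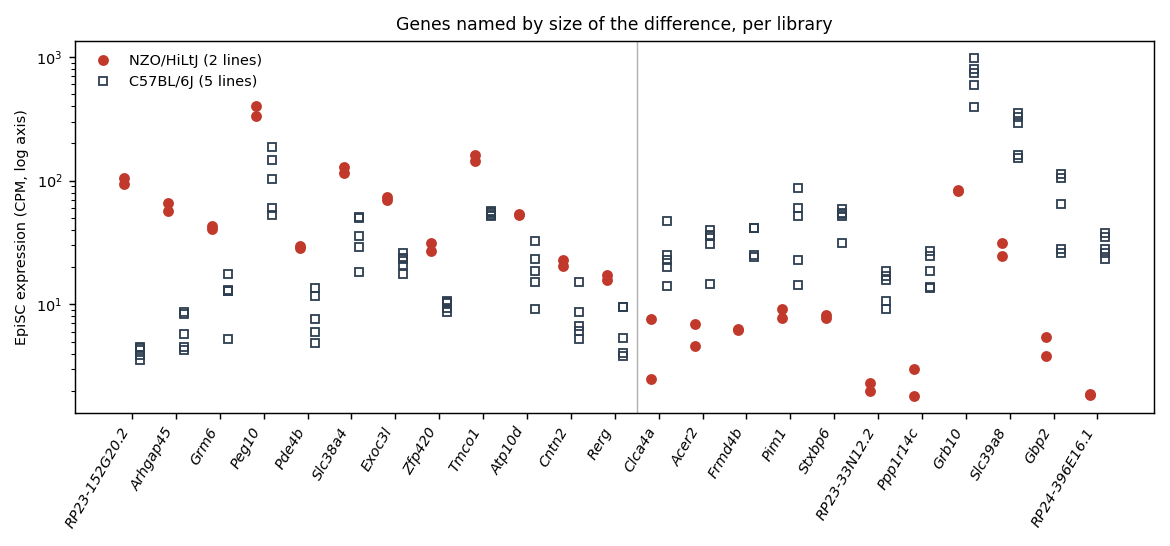
Expression per library (CPM, log axis) of 23 genes with the largest differences by the naming rule, ordered from the largest rise to the largest fall in NZO/HiLtJ. Filled circles are the 2 NZO/HiLtJ lines, open squares the 5 C57BL/6J lines, and the vertical line parts genes higher and lower in NZO/HiLtJ. The rule required that the strains do not overlap, and the wide C57BL/6J spread of Pim1 and Gbp2 contrasts with the narrow one of Tmco1.

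The largest falls, by the same rule, were genes of varied roles, among them Grb10 and Slc39a8. Grb10, an imprinted adaptor that restrains insulin and growth factor receptors (chromosome 11, 11930508 to 12038683), had 82.4 and 83.6 CPM in NZO/HiLtJ, against 986, 596, 801, 738 and 393 CPM in C57BL/6J lines 1, 2, 4, 44 and 5-1. It fell by 3.08 ± 0.43 on the log2 scale (adjusted p = 0.00121), and its lowest C57BL/6J line stood far above both NZO/HiLtJ lines. Slc39a8, a zinc and manganese importer (chromosome 3, 135825279 to 135888572), had 31.3 and 24.7 CPM in NZO/HiLtJ, against 354, 161, 328, 291 and 152 CPM in C57BL/6J (log2 fold -3.20 ± 0.41, adjusted p = 0.000606). Grb10 and Slc39a8 kept their calls under each of the 16 alternatives, the 7-library fit among them.

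The rule also took other genes that fell. Stxbp6, a SNARE-binding protein, had 8.19 and 7.80 CPM in NZO/HiLtJ and 31.5 to 58.4 CPM in C57BL/6J (log2 fold -2.65 ± 0.27). Ppp1r14c, an inhibitor of protein phosphatase 1, had 1.82 and 3.01 CPM in NZO/HiLtJ and 13.6 to 26.9 CPM in C57BL/6J (log2 fold -3.01 ± 0.33). Acer2, a ceramidase of the Golgi, had 6.96 and 4.57 CPM in NZO/HiLtJ and 14.7 to 40.1 CPM in C57BL/6J (log2 fold -2.45 ± 0.34). Frmd4b, a FERM-domain scaffold, fell by 2.47 ± 0.35 on the log2 scale to 6.20 and 6.28 CPM in NZO/HiLtJ, against 24.1 to 41.4 CPM in C57BL/6J. The interferon-induced GTPase Gbp2 had 5.47 and 3.84 CPM in NZO/HiLtJ and 26.0 to 113 CPM in C57BL/6J (log2 fold -3.85 ± 0.66), and belongs to a family of close copies that shared reads could blur. Clca4a, of a chloride channel regulator family with a near copy, fell by 2.36 ± 0.51, and the kinase gene Pim1 by 2.48 ± 0.66. Without line AC671 the calls of Gbp2, Clca4a and Pim1 were lost, and without line AC653 those of Gbp2 and Pim1, with adjusted p up to 0.103 for Gbp2, 0.209 for Clca4a and 0.321 for Pim1 over all settings. In the 7-library fit Gbp2, Clca4a and Pim1 lost their calls too (adjusted p = 0.0754 for Gbp2), and without PWK/PhJ and CAST/EiJ so did Clca4a and Pim1. Pim1 also lost its call without C57BL/6J line 1, 4 or 44.

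Loci named only for a genomic clone held some of the widest gaps. RP23-152G20.2 had 105 and 94.1 CPM in NZO/HiLtJ and 3.57 to 4.51 CPM in C57BL/6J (log2 fold 4.59 ± 0.099), and RP23-33N12.2 fell by 2.72 ± 0.41 on the log2 scale. Chosen after its values were seen, AC026478.1 had 326 and 328 CPM in NZO/HiLtJ, against 1.37 to 1.73 CPM in C57BL/6J. RP23-407K8.3, chosen likewise, had 207 and 205 CPM in NZO/HiLtJ and 0.739 to 1.43 CPM in C57BL/6J. Of 3533 tested genes with clone, Gm or pseudogene symbols, 241 were called (6.82%), 156 of them higher. Among the 14335 other symbols 745 were called (5.2%), 326 of them higher. The annotation used here gives these clone loci no position or role.

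Cytosolic ribosomal protein genes, a family picked after the values were seen, held 6 called members of 86 tested, or 6.98% against 5.52% of all genes, a share near that background. All 6 fell, and 4 passed in the 7-library fit, where Rpl29 and Rplp0 did not (adjusted p = 0.166 and 0.097). Rpl26 (chromosome 11, 68901583 to 68906989) had 151 and 153 CPM in NZO/HiLtJ, against 591, 547, 664, 606 and 556 CPM in C57BL/6J lines 1, 2, 4, 44 and 5-1, and fell by 1.96 ± 0.10 on the log2 scale. Rpl35a had 153 and 145 CPM in NZO/HiLtJ and 365 to 444 CPM in C57BL/6J (log2 fold -1.40 ± 0.081). Rps18 had 444 and 431 CPM in NZO/HiLtJ and 806 to 926 CPM in C57BL/6J (log2 fold -0.97 ± 0.073). Rpl21, Rpl29 and Rplp0 also fell, at log2 folds of -0.68, -2.06 and -0.72. Such genes have many processed copies in the genome, reads can be split among them, and their values are therefore uncertain. The strains did not overlap for any of these 6 genes, as was so for 4466 of all 17868 genes tested. The median log2 fold over the 86 genes was 0.05.

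A set of 30 gene lists described pluripotency, germ layers, signalling, metabolism and stress. Of 379 members tested, 26 were called, or 6.86% against 5.52% of all genes, 9 higher and 17 lower in NZO/HiLtJ, with a median log2 fold of -0.11 over all 379. Only 4 of the 26 passed in the 7-library fit, namely Dppa4, H2-Q4, Grb10 and Rlim. No member passed in 15 lists, which were primed epiblast, naive pluripotency, primitive streak, definitive endoderm, extraembryonic endoderm, Wnt targets, FGF and ERK targets, cholesterol synthesis, integrated stress response, p53 targets, interferon response, epithelial, mesenchymal, fibroblast and Y-linked genes. Medians of these lists ran from -0.72 for definitive endoderm to 0.84 for the Y-linked genes. For the 13 primed epiblast genes the median log2 fold was 0.14, and Otx2 had 205 and 180 CPM in NZO/HiLtJ and 131 to 218 CPM in C57BL/6J.

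**Figure D3:**
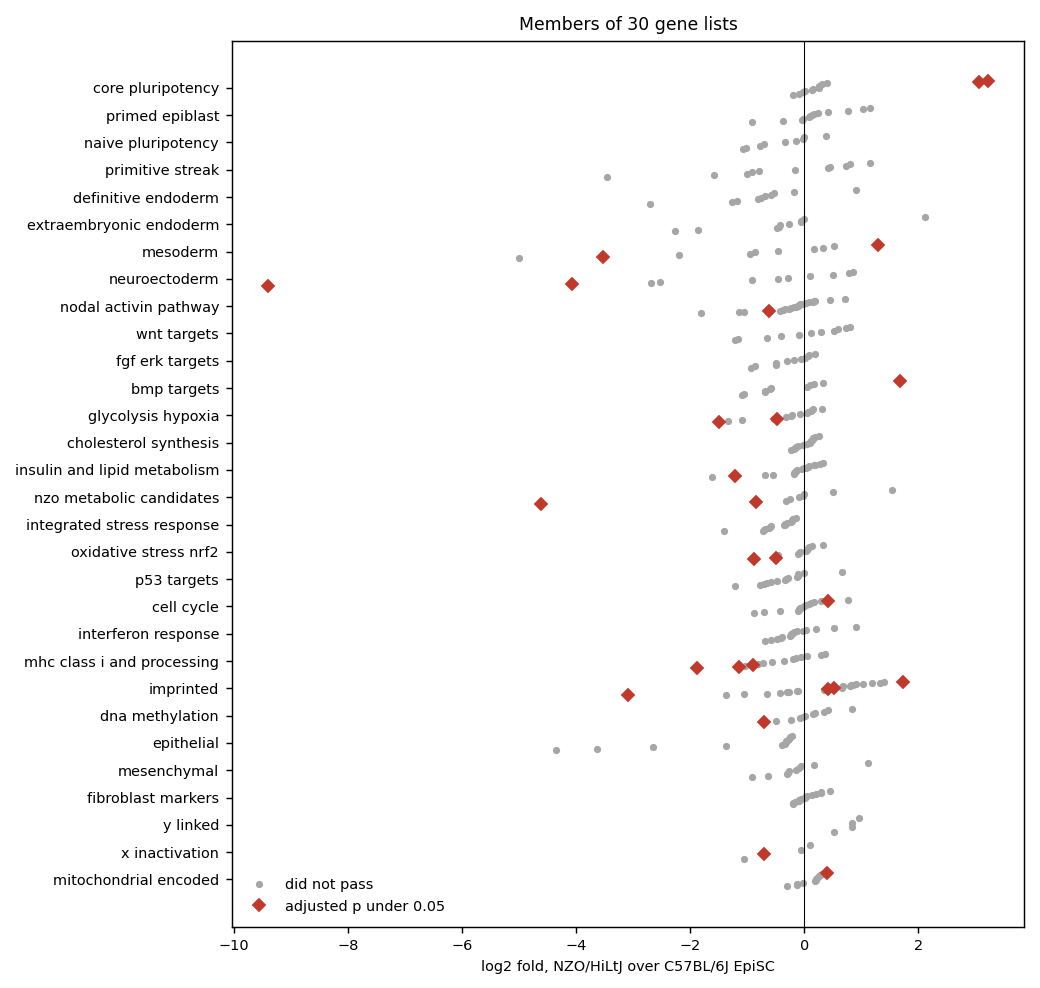
Log2 fold of each tested member of 30 gene lists, NZO/HiLtJ over C57BL/6J EpiSC, with 1 list per line of the vertical axis. Diamonds mark members with an adjusted p under 0.05 and grey circles those that did not pass. Diamonds are few in every list, 2 of 13 for core pluripotency and 4 of 26 for imprinted genes, beside 5.52% of all genes called. The far left diamond is Olig2, which had 0 counts in both NZO/HiLtJ lines.

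In the core pluripotency list, 2 of 13 members rose and none fell, beside 5.52% of all genes called. Dppa2 and Dppa4, neighbouring genes whose proteins act as a pair on chromatin, were higher in NZO/HiLtJ, at low levels. Dppa4 had 13.1 and 3.20 CPM in lines AC653 and AC671, against 1.04, 0.924, 0.843, 1.00 and 0.518 CPM in C57BL/6J lines 1, 2, 4, 44 and 5-1 (log2 fold 3.23 ± 0.46, adjusted p = 0.00104). Dppa2 had 10.7 and 2.63 CPM in lines AC653 and AC671 and 0.147 to 1.54 CPM in C57BL/6J (log2 fold 3.07 ± 0.56, adjusted p = 0.00571). Line AC653 stood well above line AC671 for both, and without it the log2 folds were 1.88 and 1.73 and neither passed (adjusted p = 0.0896 for Dppa4 and 0.318 for Dppa2). Sox2 had 65.4 and 63.1 CPM in NZO/HiLtJ and 39.6 to 112 CPM in C57BL/6J, and Nanog had 126 and 108 CPM in NZO/HiLtJ and 44.3 to 173 CPM in C57BL/6J. The strains overlapped for both, and neither passed.

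Of the lineage genes that passed, Tbx20, Olig2 and Pax6 had few counts or none in NZO/HiLtJ, and Kdr and Msx1 were at most 7.50 CPM in either strain. In the mesoderm list, Kdr, the VEGF receptor, rose by 1.29 ± 0.35 on the log2 scale, with 6.70 and 7.50 CPM in NZO/HiLtJ and 1.80 to 4.46 CPM in C57BL/6J, while Tbx20, a cardiac factor, had 5 counts in all in NZO/HiLtJ and 149 in C57BL/6J. In the neuroectoderm list, Olig2, a motor neuron and oligodendrocyte factor, had 0 counts in both NZO/HiLtJ lines and 402 in all in C57BL/6J. That is at least 56.2-fold lower against a floor of 3 counts over the NZO/HiLtJ group. Olig2 reached at most 0.069 CPM in any library outside C57BL/6J. Pax6, of the eye and neural tube, had 8 counts in all in NZO/HiLtJ and 336 in C57BL/6J. Msx1, a BMP target, had 1.96 and 3.54 CPM in NZO/HiLtJ and 0.629 to 1.29 CPM in C57BL/6J (log2 fold 1.67 ± 0.37). Smad3, which carries Activin signals to the nucleus, was the 1 Nodal and Activin gene of 23 to pass, beside 5.52% of all genes called. It had 40.1 and 35.9 CPM in NZO/HiLtJ and 47.1 to 70.9 CPM in C57BL/6J (log2 fold -0.62 ± 0.15). The calls of Kdr, Tbx20, Olig2, Pax6 and Smad3 were lost without either NZO/HiLtJ line and in the 7-library fit, with adjusted p up to 0.304 for Kdr, 0.134 for Tbx20, 0.174 for Olig2, 0.363 for Pax6 and 0.303 for Smad3. Leaving out C57BL/6J line 4 or 44 also ended the calls of Kdr and Smad3, line 2 or 5-1 that of Kdr and line 1 that of Smad3. Msx1 lost its call without line AC671 (adjusted p = 0.312).

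Imprinted genes moved in both directions. Of 26 tested, 3 rose and 1 fell, beside 5.52% of all genes called. In this list 17 had a log2 fold above 0, and the list median was 0.51. Besides Peg10, those that rose were Snrpn, an RNA-binding protein of the Prader-Willi region, with 218 and 223 CPM in NZO/HiLtJ and 142 to 179 CPM in C57BL/6J, and Zrsr1, a splicing gene, with 16.4 and 14.8 CPM in NZO/HiLtJ and 9.24 to 12.0 CPM in C57BL/6J. Their log2 folds were 0.41 ± 0.093 and 0.52 ± 0.14, and both calls were lost without either NZO/HiLtJ line, at adjusted p up to 0.198 for Snrpn and 0.395 for Zrsr1. Zrsr1 also lost its call without C57BL/6J line 2, 4 or 44. Grb10, given above, fell. Genes of the Dlk1 and Meg3 domain did not pass, at log2 folds of 1.33 ± 0.42 for Dlk1, 0.85 ± 0.25 for Meg3 and 0.68 ± 0.20 for Rian. In the list of DNA methylation genes 1 of 11 passed, the base excision enzyme gene Tdg. It fell by 0.71 ± 0.14 to 75.9 and 76.7 CPM in NZO/HiLtJ, against 96.8 to 147 CPM in C57BL/6J. Tdg was also below C57BL/6J in the libraries of the other strains, at 55.1 to 73.6 CPM. In the X-inactivation list Rlim, an X-linked ubiquitin ligase that activates Xist, fell by 0.70 ± 0.16 to 130 and 118 CPM in NZO/HiLtJ, against 182 to 226 CPM in C57BL/6J. Tdg and Rlim lost their calls without either NZO/HiLtJ line, with an adjusted p up to 0.249 for Rlim.

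Class I histocompatibility and antigen processing genes fell in 3 of 14 cases and rose in none, with a list median of -0.45. H2-Q4 had 5.74 and 4.22 CPM in NZO/HiLtJ, against 16.8, 22.2, 17.1, 17.3 and 17.9 CPM in C57BL/6J (log2 fold -1.87 ± 0.31, adjusted p = 0.00283). H2-D1, a classical class I gene, had 22.1 and 26.4 CPM in NZO/HiLtJ and 34.6 to 66.7 CPM in C57BL/6J (log2 fold -1.14 ± 0.25). Tapbp, or tapasin, which loads peptides on class I molecules, had 36.3 and 31.6 CPM in NZO/HiLtJ and 52.0 to 75.8 CPM in C57BL/6J (log2 fold -0.90 ± 0.20). Over every H2 gene tested, a wider family picked after its values were seen, 9 of 23 were called, 4 higher and 5 lower, or 39.1% against 5.52% of all genes. In the 7-library fit 3 of the family were called, or 16.7% against 1.25% of all genes. H2-Q10 rose to 6.33 and 6.81 CPM in NZO/HiLtJ, against 1.21 to 2.59 CPM in C57BL/6J, while H2-T24 fell to 0.763 and 1.07 CPM in NZO/HiLtJ, against 4.01 to 9.19 CPM in C57BL/6J. H2 genes are near copies of each other and differ in sequence between strains, so single H2 values are uncertain. Without line AC671 the calls of H2-Q4, H2-D1 and Tapbp were lost, and without line AC653 those of H2-D1 and Tapbp, at adjusted p up to 0.0855, 0.254 and 0.249.

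Among genes of metabolism and stress, those that passed mostly fell. The counts by list stand beside 5.52% of all genes called, and no list was tested as a set. In the glycolysis and hypoxia list 2 of 16 fell, namely Pdk1, a kinase that inhibits pyruvate dehydrogenase, and Gapdh (log2 fold -0.48 ± 0.11). Pdk1 had 36.7 and 29.6 CPM in NZO/HiLtJ and 65.1 to 135 CPM in C57BL/6J (log2 fold -1.49 ± 0.25). In the insulin and lipid list 1 of 19 fell, the lipase gene Lpl (log2 fold -1.21 ± 0.27). Of 12 candidate genes for metabolic traits in this or related strains, 9 were tested and 2 fell. Pctp, a phosphatidylcholine carrier, had a log2 fold of -0.84 ± 0.18, and its mean was lower still in NOD/ShiLtJ (6.91 against 15.4 CPM in NZO/HiLtJ). Apoa2, an apolipoprotein of HDL, had 5 counts in all in NZO/HiLtJ and 322 in C57BL/6J. Apoa2 was also low in NOD/ShiLtJ, WSB/EiJ, PWK/PhJ and DBA/2J, at 0.199, 0.136, 0.183 and 0.1085 CPM on average. It had 1.24 CPM in CAST/EiJ and 2.32 CPM in C57BL/6J. Lepr, the leptin receptor, did not pass (log2 fold 1.54 ± 0.46, adjusted p = 0.0695). In the oxidative stress list 2 of 13 fell, the glutathione transferase gene Gstm1 (-0.88 ± 0.17) and the catalase gene Cat (-0.49 ± 0.13). In the cell cycle list 1 of 16 rose, Ccne1, cyclin E1 (0.42 ± 0.098), and 1 of 12 mitochondrially encoded genes rose, mt-Cytb (0.40 ± 0.084). Of these 9 genes, Pdk1 lost its call without line AC671, Apoa2 without line AC653, and Gapdh, Lpl, Pctp, Gstm1, Cat, Ccne1 and mt-Cytb without either NZO/HiLtJ line, and none passed in the 7-library fit, at adjusted p from 0.0625 for Pdk1 to 0.192 for Cat. Cat also lost its call without C57BL/6J line 1, 4, 44 or 5-1, and Gapdh without line 4, with adjusted p up to 0.364 for Cat and 0.26 for Gapdh.

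Some called genes lay side by side. Of the tested genes, 14474 had a position, and in 225 windows of 10 Mb with at least 20 tested genes the called share ran from 0, in 25 windows, to 20%. That highest share was 4 of 20 genes on chromosome 3 from 10 to 20 Mb, against 5.52% of all genes tested. It is the extreme of the 225 windows. There Car2, a carbonic anhydrase, rose to 332 and 329 CPM in NZO/HiLtJ, against 153 to 205 CPM in C57BL/6J, and the fatty acid binding gene Fabp5 rose to 167 and 161 CPM in NZO/HiLtJ, against 71.4 to 87.5 CPM in C57BL/6J. In the same window Car3 and Car13 fell, to 0.597 and 0.419 CPM for Car3 in NZO/HiLtJ, against 3.23 to 6.80 CPM in C57BL/6J. On chromosome 1 from 170 to 180 Mb 14 of 85 genes were called (16.5%), 3 higher and 11 lower, Apoa2 among the lower. The window of chromosome 6 from 0 to 10 Mb, with 5 of 28 called (17.9%), held Peg10 beside Ppp1r9a, an actin-binding protein of neurons. Ppp1r9a fell to 15.3 and 12.6 CPM in NZO/HiLtJ, against 40.9 to 73.4 CPM in C57BL/6J. Neighbours thus changed in opposite directions as well as together.

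On chromosome 2 from 100 to 110 Mb 7 of 44 genes were called, or 15.9% against 5.52% of all genes. Among them was the tandem pair Cd59a and Cd59b, whose proteins shield cells from complement. Cd59a had 3.25 and 3.92 CPM in NZO/HiLtJ, against 20.3, 12.6, 16.5, 26.0 and 15.0 CPM in C57BL/6J lines 1, 2, 4, 44 and 5-1 (log2 fold -2.33 ± 0.26, adjusted p = 9.60e-05). Cd59b had 0.133 and 0.342 CPM in NZO/HiLtJ and 0.732 to 1.26 CPM in C57BL/6J (log2 fold -1.88 ± 0.49, adjusted p = 0.0398). Both fell, though Cd59b rests on 13 counts in all in NZO/HiLtJ and 121 in C57BL/6J and did not pass in the 7-library fit (adjusted p = 0.13), where Cd59a did (0.0168). The genes are near copies of each other, so their reads can be shared. Cd59b, like the genes named in the preceding windows, was chosen after its values were seen. Their promoter stretches, 250 bases before to 50 after the start, are shown because these neighbours both fell in the 17-library fit, as RefSeq gives them for the reference strain in build GRCm38.p6, both on the plus strand and in lower case with each CG pair, a motif that reads the same on both strands, in capitals. They lie at chr2:104095551-104095850 for Cd59a and chr2:104070816-104071115 for Cd59b. In GENCODE M21 Cd59a begins at 104095801, inside its stretch, but Cd59b begins at 104069849, ahead of its stretch, so the 2 sources differ on its start.
Cd59a: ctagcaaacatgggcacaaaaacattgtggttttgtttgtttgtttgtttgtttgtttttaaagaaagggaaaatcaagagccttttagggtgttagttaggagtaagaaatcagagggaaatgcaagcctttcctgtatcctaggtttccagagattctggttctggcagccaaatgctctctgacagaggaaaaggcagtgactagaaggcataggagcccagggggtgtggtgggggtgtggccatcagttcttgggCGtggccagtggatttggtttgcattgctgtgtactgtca
Cd59b: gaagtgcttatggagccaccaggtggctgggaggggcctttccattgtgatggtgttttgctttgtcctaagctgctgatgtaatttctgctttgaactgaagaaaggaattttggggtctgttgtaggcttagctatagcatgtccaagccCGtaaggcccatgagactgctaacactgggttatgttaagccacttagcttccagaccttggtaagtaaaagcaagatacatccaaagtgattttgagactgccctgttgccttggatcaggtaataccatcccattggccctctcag
Each stretch holds 1 CG pair. At most 1 was held by 14.1% of the 32851 promoter stretches of that length, and their median was 7. The longest run of bases the pair shares is 8.

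To place NZO/HiLtJ among the other strains, its lines were set against the mean of NOD/ShiLtJ, WSB/EiJ, PWK/PhJ and CAST/EiJ. That contrast shares the NZO/HiLtJ libraries with the comparison against C57BL/6J. It called 2998 genes, 16.8% of those tested, 1809 higher and 1189 lower in NZO/HiLtJ, and 710 without line AC653 or 891 without line AC671. Several of the genes above differed from C57BL/6J and did not pass against the mean of the 4 other strains, which can hide strains that lie on either side. RP23-152G20.2 had 105 and 94.1 CPM in NZO/HiLtJ, 64.5 to 113 CPM in the 4 other strains and 3.57 to 4.51 CPM in C57BL/6J, at log2 folds of 0.22 ± 0.091 over the other strains (adjusted p = 0.122) and 4.59 over C57BL/6J. For Frmd4b those log2 folds were -0.30 ± 0.30 and -2.47, for Grm6 0.01 ± 0.30 and 1.77, for Rpl35a 0.05 and -1.40, and for Rps18 0.03 and -0.97. Grm6, at 40.8 and 42.6 CPM in NZO/HiLtJ, had 11.4 to 16.0 CPM in NOD/ShiLtJ, near C57BL/6J, and 60.5 to 64.3 CPM in WSB/EiJ, 32.3 to 53.5 CPM in PWK/PhJ and 68.6 to 86.2 CPM in CAST/EiJ. Frmd4b, at 6.20 and 6.28 CPM in NZO/HiLtJ, had 14.2 to 27.3 CPM in CAST/EiJ and 3.44 to 7.80 CPM over the 3 remaining strains.

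A second group of genes placed both NZO/HiLtJ lines outside all 15 libraries of the 6 other strains, as the naming rule for this contrast required. Tmco1 had 160 and 144 CPM in NZO/HiLtJ, against 127 CPM in DBA/2J and 52.1 to 72.1 CPM in the other libraries. Zfp420 had 31.3 and 26.7 CPM in NZO/HiLtJ and 3.58 to 11.1 CPM elsewhere (log2 fold 1.99 ± 0.18 over the 4 strains). Rcn2, a calcium-binding protein of the endoplasmic reticulum (chromosome 9, 56041845 to 56061882), had 168 and 167 CPM in NZO/HiLtJ and 57.5 to 83.5 CPM elsewhere (log2 fold 1.15 ± 0.097). For Exoc3l the margin was narrow, since 1 WSB/EiJ line reached 69.5 CPM beside 69.96 CPM in the lower NZO/HiLtJ line. The drug efflux pump gene Abcb1b and the X-linked gene Bex4 also stood above the other strains, with log2 folds of 1.30 ± 0.16 and 1.25 ± 0.13 over the 4 strains.

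Among the genes below all other libraries, Rpl26 had 151 and 153 CPM in NZO/HiLtJ and 480 to 664 CPM elsewhere (log2 fold -1.89 ± 0.098 over the 4 strains). Cd59a had 3.25 and 3.92 CPM in NZO/HiLtJ and 6.69 to 63.0 CPM elsewhere (log2 fold -2.67 ± 0.25). Dysf, a membrane repair protein of muscle, had 6.80 and 8.87 CPM in NZO/HiLtJ and 16.7 to 49.0 CPM elsewhere (log2 fold -1.89 ± 0.21). Tcea3, a transcription elongation factor, had 5.11 and 3.5 CPM in NZO/HiLtJ and 13 to 32.8 CPM elsewhere (log2 fold -2.17 ± 0.24). Acer2 and the secreted semaphorin gene Sema3c were the remaining pair, at log2 folds of -2.48 ± 0.33 and -2.38 ± 0.29, and the WSB/EiJ lines came nearest to NZO/HiLtJ for Acer2, at 8.67 and 11.7 CPM. All 12 genes named by this rule kept their calls against the 4 strains under each of the 18 alternatives.

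**Figure D4:**
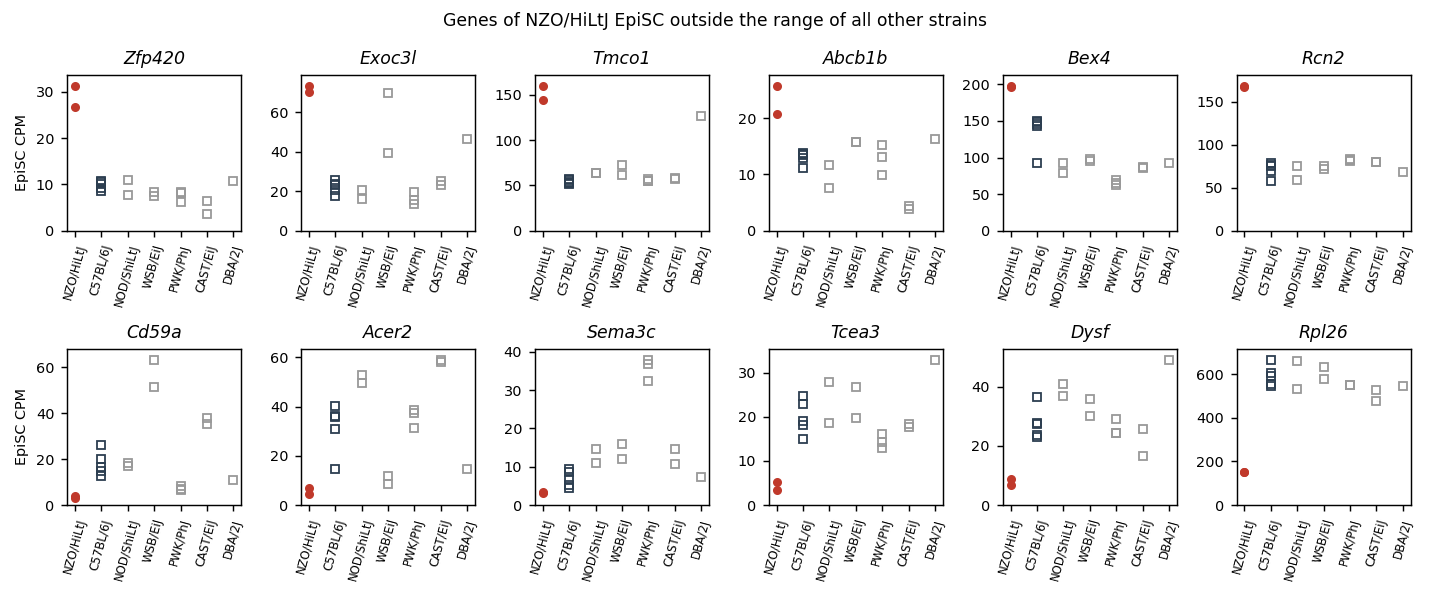
Expression (CPM, linear axis from 0) of 12 genes in each EpiSC library, by strain. Filled circles are the 2 NZO/HiLtJ lines, dark open squares the 5 C57BL/6J lines and grey open squares the other strains. The upper row holds genes in which both NZO/HiLtJ lines lie above all 15 other libraries and the lower row genes in which both lie below them, which the rule required.

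Against the 4 other strains, 65 of the 379 list members were called, or 17.2% beside 16.8% of all genes, 35 higher and 30 lower. Among 14 targets of the tumour suppressor p53, 7 fell, 1 rose and the median log2 fold was -0.73, while none of the 14 passed against C57BL/6J. In the contrast with the 4 strains the 15 fibroblast markers had a median log2 fold of -0.74, and none of them passed. With the fibroblast level as a covariate 8 of the p53 targets fell and 1 rose. A link between the p53 targets and feeder cells was not tested. Cdkn1a, the cell cycle inhibitor p21, had 77.9 and 77.4 CPM in NZO/HiLtJ, 105 to 263 CPM in the 4 strains and 83.1 to 167 CPM in C57BL/6J. Its log2 fold was -1.18 ± 0.23 over the 4 strains (adjusted p = 0.00415) and -0.49 ± 0.23 over C57BL/6J (adjusted p = 0.244). Trp53inp1 had 129 and 102 CPM in NZO/HiLtJ, 172 to 360 CPM in the 4 strains and 135 to 234 CPM in C57BL/6J. Both NZO/HiLtJ lines were below all 15 other libraries for Cdkn1a and Trp53inp1. Plk2, Btg2, Mdm2, Eda2r and Ccng1 were the others that fell, at log2 folds of -1.27, -1.17, -0.85, -0.76 and -0.65 over the 4 strains, and Zmat3 rose by 0.33. Without line AC671 none of the 14 fell by the test, and without line AC653 only 2 did. In the core pluripotency list 4 of 13 rose against the 4 strains and none fell, with L1td1, an RNA-binding protein of pluripotent cells, at 0.85 ± 0.10, Tdgf1, the Nodal co-receptor Cripto, at 0.84 ± 0.19, and Dppa2 and Dppa4 at 2.00 ± 0.49 and 2.16 ± 0.41. Of the 4, 1 passed without line AC653 and 3 without line AC671.

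The same 7 lines were also taken to definitive endoderm, which asks whether the strain difference is the same in both states. DE libraries were made with SMART-Seq v4 amplification and EpiSC libraries with a stranded poly(A) kit, so a change of the strain difference with cell state and with library kit cannot be told apart. In a fit of the 14 libraries, 23 of 18543 genes (0.124%) had a strain difference that differed between DE and EpiSC, 11 more positive and 12 more negative in DE, and 1383 had an unadjusted p under 0.05. With the cell line as a block, since each line gave both libraries, 10 genes passed, 7 of them among the 23. Without line AC653 the count was 2, without line AC671 it was 1, without C57BL/6J lines 1, 44 and 5-1 it was 9, 12 and 13, and without line 2 it was 37.

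Slc39a8 separated the strains in EpiSC and not in DE. It had 316 and 327 CPM in NZO/HiLtJ DE and 227 to 478 CPM in C57BL/6J DE, and 31.2 and 24.7 CPM in NZO/HiLtJ EpiSC and 150 to 353 CPM in C57BL/6J EpiSC. The log2 fold of NZO/HiLtJ over C57BL/6J was -0.19 ± 0.35 in DE and -3.19 in EpiSC, a difference of 3.00 ± 0.51 (adjusted p = 0.0388, and 0.00423 with the line as a block). The log2 folds of Rcn2 were -0.21 in DE, where the strains overlapped, and 1.24 in EpiSC. Cyb5r1, a cytochrome b5 reductase, had 49.7 and 47.7 CPM in NZO/HiLtJ DE and 52.7 to 76.6 CPM in C57BL/6J DE, and 39.6 and 41.1 CPM in NZO/HiLtJ EpiSC and 140 to 173 CPM in C57BL/6J EpiSC. Its strains overlapped in neither state, and its log2 folds were -0.39 in DE, which did not pass (adjusted p = 0.284), and -1.99 in EpiSC. All 3 calls were lost without either NZO/HiLtJ line or without C57BL/6J line 1, those of Slc39a8 and Rcn2 without line 44, that of Slc39a8 without line 4 and that of Rcn2 without line 5-1, with adjusted p up to 0.631 for Slc39a8 and Rcn2 and 0.608 for Cyb5r1. With the line as a block Cyb5r1 and Rcn2 did not pass (adjusted p = 0.0679 and 0.147).

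Other genes differed between the strains in DE and far less in EpiSC. Mtmr2, a phosphoinositide phosphatase (chromosome 9, 13748410 to 13806481), had 9.21 and 11.8 CPM in NZO/HiLtJ DE, against 93.1, 66.4, 96.3, 101 and 74.9 CPM in C57BL/6J DE lines 1, 2, 4, 44 and 5-1. In EpiSC it had 89.0 and 88.6 CPM in NZO/HiLtJ and 99.0 to 116 CPM in C57BL/6J. The log2 fold was -3.04 in DE and -0.25 in EpiSC, a difference of -2.80 ± 0.25 (adjusted p = 0.000385), and Mtmr2 alone of the 11 genes plotted here kept its call under all 12 alternatives. Fhl3, a LIM-domain protein, had 33.5 and 23.1 CPM in NZO/HiLtJ DE and 0.679 to 1.75 CPM in C57BL/6J DE, but 32.0 and 37.5 CPM in NZO/HiLtJ EpiSC and 34.9 to 48.3 CPM in C57BL/6J EpiSC. Its difference of log2 folds was 4.75 ± 0.51 (adjusted p = 0.00161). Mocs1, of molybdenum cofactor synthesis, had 0.540 and 0.674 CPM in NZO/HiLtJ DE and 6.76 to 15.5 CPM in C57BL/6J DE, and a difference of -3.56 ± 0.50. Fhl3 and Mocs1 lost their calls without either NZO/HiLtJ line, at adjusted p up to 0.259 and 0.453.

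**Figure D5:**
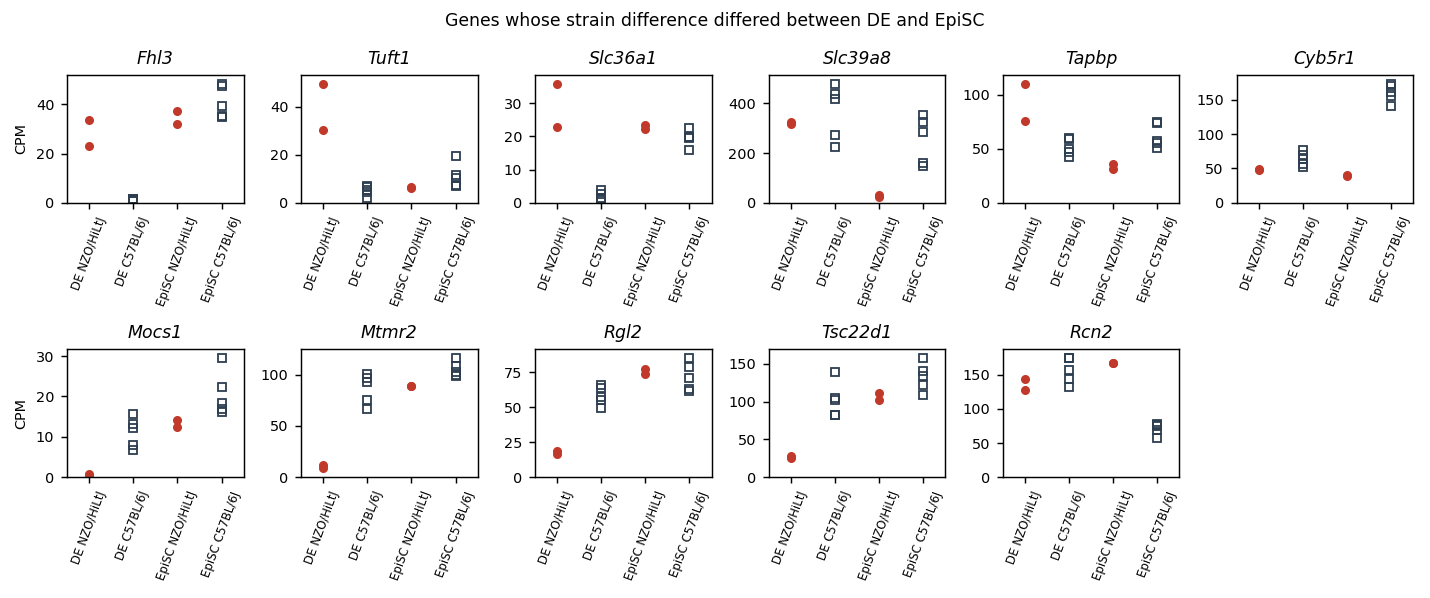
Expression (CPM on the scale of the 14-library fit, linear axis from 0) of 11 genes in DE and EpiSC libraries of both strains. Filled circles are the 2 NZO/HiLtJ lines and open squares the 5 C57BL/6J lines, with DE on the left of each panel and EpiSC on the right. Slc39a8 and Rcn2 separate the strains in EpiSC and not in DE, and Mtmr2 and Rgl2 separate them widely in DE.

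Among the genes named for their difference from C57BL/6J in EpiSC, some kept a strain difference in DE. In DE the log2 fold of NZO/HiLtJ over C57BL/6J was 2.32 ± 0.45 for Arhgap45 (adjusted p = 0.0118), 2.18 ± 0.38 for Atp10d (0.00543), 0.82 ± 0.15 for Tmco1 (0.00699), -1.98 ± 0.44 for Acer2 (0.0292) and -1.82 ± 0.36 for Ppp1r14c (0.0119). Atp10d had 291 ± 5.97 CPM in NZO/HiLtJ DE and 64.2 ± 23.4 CPM in C57BL/6J DE (SD, n = 2 and 5), and 52.9 ± 1.00 CPM in NZO/HiLtJ EpiSC and 19.5 ± 8.68 CPM in C57BL/6J EpiSC on the same 14-library scale. Grb10 had 793 ± 128 CPM in NZO/HiLtJ DE and 1951 ± 1272 CPM in C57BL/6J DE, and did not pass there (log2 fold -1.30 ± 0.67, adjusted p = 0.428). Nor did Grb10 pass the test of the difference between DE and EpiSC (1.77 ± 0.90, adjusted p = 0.696), so a smaller effect in DE is not shown.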

How the data were processed

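Libraries of EpiSC and DE were deposited as 1 table of gene counts for each cell type. The authors aligned reads with STAR 2.4 to mm10 and counted them with HTSeq 0.6.1, per the submitters' processing notes. How strand and multi-mapping reads were handled is not given in the sources used here. No molecular identifiers were used, so floors cover counting error only.

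From the deposited counts, a gene was kept with 10 or more reads in 3 or more libraries. The test was edgeR (4.0.16, under R 4.3.3), quasi-likelihood with robust estimation and TMM scaling; p-values were adjusted by Benjamini and Hochberg and called under 0.05. CPM are TMM-scaled, SE is the log2 fold over the root of F, and errors after CPM are SD. Both EpiSC contrasts came from 1 fit of 17 libraries by strain, which takes the spread as equal between strains, and the contrast of DE with EpiSC from a fit of 14. P-values measure the spread between lines. Alternatives were RLE scaling, other filters, DESeq2 1.42.0 (NA kept as NA), limma 3.58.1 voom weights, covariates, other sets of libraries and leaving out each line. Scripts were tested on simulated counts.

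Members and lists were chosen with earlier results of these data known. Genes were named as list members or by rule. Against C57BL/6J the rule took the 12 largest log2 folds each way among called genes averaging 3 or more in log2 CPM whose libraries did not overlap. Against the 4 other strains it took 6 each way that passed both EpiSC contrasts, with NZO/HiLtJ outside the other 15 libraries, and for DE against EpiSC 6 each way. Predicted genes were passed over, and 2 genes that met these rules are not reported here. These conditions were met by 207 and 296 genes, 99 and 93, and 7 and 7. Of 404 list members 403 matched the table. Positions are GRCm38 from GENCODE M21.

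Each line gave both an EpiSC and a DE library, which pairs them by origin. Deviations from group means correlated within a line with r from 0.0468 to 0.239 in C57BL/6J and 0.00456 in NZO/HiLtJ over 9423 genes. The NZO/HiLtJ libraries differed beyond sampling noise, with a chi-square per degree of freedom of 7.83 against 29.2 to 95.3 between C57BL/6J lines.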

Additional observations from a re-analysis of the deposited data

Results flagged for a closer look

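The difference between NZO/HiLtJ and C57BL/6J itself differed between DE and EpiSC for 11 named genes, by the test of that difference in the 14-library fit. On the log2 scale, the difference in DE minus that in EpiSC was 4.75 for Fhl3, 3.75 for Tuft1 (tuftelin), 3.67 for Slc36a1, a lysosomal amino acid transporter, 3.00 for Slc39a8, 1.74 for Tapbp and 1.60 for Cyb5r1. It was -3.56 for Mocs1, -2.80 for Mtmr2, -1.79 for Rgl2, a Ral exchange factor, -1.62 for Tsc22d1, a leucine zipper protein, and -1.45 for Rcn2. With the cell line as a block, since each line gave both libraries, 6 of the 11 did not pass, at adjusted p of 0.12 for Slc36a1, 0.124 for Tapbp, 0.0679 for Cyb5r1, 0.12 for Rgl2, 0.0679 for Tsc22d1 and 0.147 for Rcn2. Slc36a1 lost its call under 9 of 12 alternatives and Tapbp under 7, and of the 11 only Mtmr2 kept its call when either NZO/HiLtJ line was left out.

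Stxbp6 stood apart in 1 of the 24 genes examined for a line far from the rest of C57BL/6J. Line 5-1 had 31.5 CPM, the low end of a range that reached 58.4 CPM. Chance marks about 1 in 20 groups this way.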

How the results depend on the processing

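Against C57BL/6J, 986 genes were called in EpiSC, and 1817 with DESeq2, 2398 with limma voom weights by strain, 201 on the 7 libraries alone and 428 without PWK/PhJ and CAST/EiJ. The first 2 settings change the tool, and the last 2 leave fewer libraries to estimate the spread. Those last 2 also drop PWK/PhJ and CAST/EiJ, whose coefficients of variation between lines were 0.0973 and 0.137. The common coefficient of the 17-library fit was 0.241, below the 0.333 of C57BL/6J and above the 0.0779 of NZO/HiLtJ. The cause of the different counts was not tested further. Leaving out 1 line gave 242 to 1718 genes, lowest without line AC653 and highest without C57BL/6J line 2. For NZO/HiLtJ against the mean of NOD/ShiLtJ, WSB/EiJ, PWK/PhJ and CAST/EiJ in EpiSC, 2998 genes were called and 6666 with voom weights, and leaving out 1 line gave 710 to 3346. For the difference between DE and EpiSC, 23 genes were called, 40 with no filter and 208 with DESeq2, and leaving out 1 line gave 1 to 37. With the cell line as a replicate block 10 were called. RLE scaling and the filter of 1 CPM in 2 libraries kept each of the 3 counts within 1.5 times. Of the 24 genes that the rule chose against C57BL/6J, 14 kept their calls under all 16 alternatives and 0 reversed. With 2 NZO/HiLtJ lines, a fit that leaves 1 out assumes that the other varies like the remaining strains. Low genes such as Olig2, Pax6, Tbx20 and Apoa2 rest on few counts in NZO/HiLtJ, and C57BL/6J lines also differ widely for them, so what limits those calls was not tested.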

Other observations

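Glutathione S-transferase genes of the mu class, which conjugate glutathione to toxins and are near copies of each other, were called in 4 of 7 cases, or 57.1% against 5.52% of all genes, a family chosen after its values were seen. Of these 1 rose and 3 fell, and 2 were called in the 7-library fit, or 28.6% against 1.25% of all genes.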
